A study of Mus musculus with 4 samples.

Results

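A set of 10 genes for secreted antimicrobial and innate defence proteins was followed through the cells of the mouse mammary gland: Ltf, Lcn2, Slpi, Wfdc17, Wfdc18, Wfdc3, Cd14, Lbp, Fcgbp and Spp1. The 10 genes were chosen by name, and all 10 were present among the 31053 genes of the deposited tables. Single-cell 3′ RNA libraries had been made from the fourth mammary glands of FVB mice aged 9 weeks. Every mouse was Tfap2c fl/fl and carried Krt5-CreERT2, a Cre recombinase driven by the promoter of a basal keratin that acts once 4-hydroxytamoxifen (4OHT) is given. Daily intraperitoneal dosing began at 4 weeks, for 5 days by one label and a week by another, with corn oil, the vehicle, in 2 mice and 4OHT in the other 2, and each mouse gave 1 library. The study asked what conditional loss of Tfap2c, the gene of the transcription factor AP-2γ, does to mammary stem cells.

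The mammary epithelium has an outer basal layer of contractile cells and an inner luminal layer. The luminal layer holds hormone-sensing cells, which carry the receptors for oestrogen and progesterone, and progenitors of the cells that later make milk. The luminal layer lines ducts that open to the outside, and milk and ductal fluid carry proteins that starve bacteria of iron, inhibit proteases, bind bacterial lipopolysaccharide or hold antibodies in mucus. In many epithelia such genes rise during infection under the factors NF-κB, STAT3 and C/EBP, and in the mammary gland many of them also rise during involution.

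Cells with at least 1000 UMIs (unique molecular identifiers, 1 per captured transcript) were sorted into 3 classes by keratin and lineage transcripts, none of which is one of the 10 genes. Basal cells numbered 1496 and 1933 under corn oil and 1421 and 2178 under 4OHT. Luminal progenitors numbered 1271 and 1126, then 1752 and 1421, and hormone-sensing cells 170 and 336, then 258 and 463. A further 562, 654, 1149 and 1198 cells, in the same order, met no rule and are in no test. Libraries held 17351950 to 22017878 UMIs, with a median of 3055 to 5299.5 per cell, and any 2 libraries had between 18 and 36 cell barcodes in common. Leukocytes also make several of these proteins, so their markers were measured in each class. In basal cells and progenitors the summed pan-leukocyte markers were at 3.13 CPM or less, where CPM is the usual scaling of a gene's UMIs to all UMIs of the class in that library. In hormone-sensing cells they reached 30.6 CPM, in 4OHT 1 alone. Of 6 neutrophil markers, no more than 1 had a UMI in progenitors of any library, and that was S100a8, at 4.91 to 48.3 CPM; its part in the results was not tested.

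In basal cells Tfap2c itself read 389 and 285 CPM under corn oil, and 285 and 325 CPM under 4OHT. Its log2 fold change, 4OHT over corn oil, was -0.08 (standard error 0.25; edgeR quasi-likelihood test, Benjamini-Hochberg adjusted p = 0.999). A 3′ count can include a transcript that has lost an internal exon, so the counts do not measure the deletion, and every direction below rests on the labels.

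Progenitors had more RNA of 9 of the 10 genes than basal cells, and less of Slpi. In the comparison of progenitors with basal cells over the 4 libraries, with library as a block, all 10 passed an adjusted p of 0.05 in edgeR's quasi-likelihood test. This is a comparison in which 56.3% of all 11152 genes tested passed, 26.8% as higher and 29.6% as lower in progenitors. The median log2 fold change was 5.27 over the 10 genes and -0.04 over all genes tested. Progenitors also exceeded hormone-sensing cells in the same 9 genes, again with Slpi lower. In that comparison 45.9% of all genes passed, 24.4% as higher and 21.5% as lower. Wfdc17 missed the threshold there in DESeq2 (adjusted p = 0.084). In corn oil 1 it read 14.2 CPM in progenitors and 16.1 CPM in hormone-sensing cells. Between hormone-sensing and basal cells the genes split: 5 passed as higher and 3 as lower, where 59.6% of all genes passed, 27.6% as higher and 32% as lower.

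**Figure D1:**
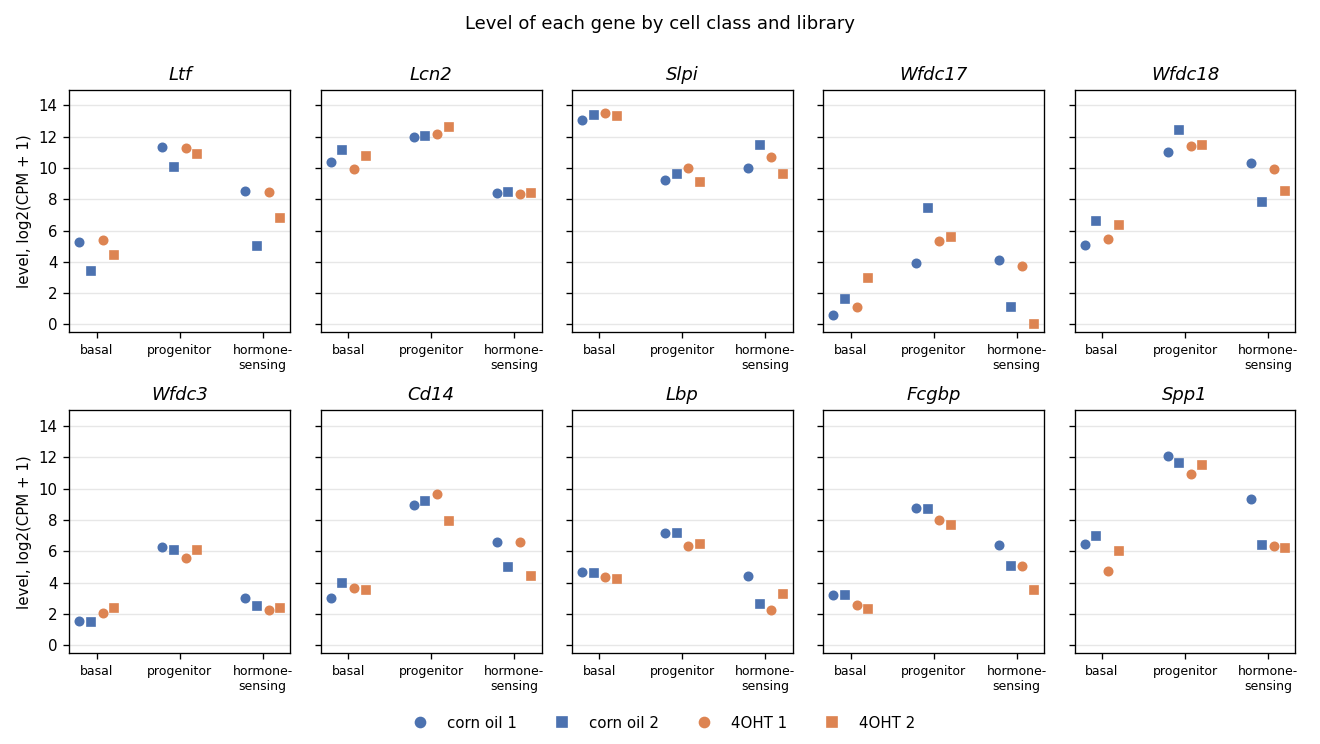
Level of each gene as log2(CPM + 1), with 1 panel per gene, 3 cell classes on the x axis and 1 point per library (circles, replicate 1; squares, replicate 2). In every library the progenitor points lie above the basal points except for Slpi, whose basal values run from 8655 to 11733 CPM before the log.

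The first 2 genes encode proteins that withhold iron. Ltf (ENSMUSG00000032496) encodes lactotransferrin, the iron-binding protein of milk, and lies at chr9:111019271-111042767 on the plus strand (GRCm38). In progenitors it was at 2543 and 1054 CPM under corn oil and at 2446 and 1860.4 CPM under 4OHT. The basal values were 37.8, 9.48, 40.8 and 20.8 CPM in the same order, so the classes did not overlap and corn oil 2 was lowest in both. The log2 fold change of progenitors over basal cells was 6.63 with a standard error of 0.28 (edgeR, adjusted p = 4.9e-11). Hormone-sensing cells fell between them with 366 and 32.0 CPM under corn oil and 347 and 111 CPM under 4OHT, each above the basal level of its library.

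Lcn2 (ENSMUSG00000026822) encodes lipocalin 2, which binds bacterial siderophores, and lies at chr2:32384633-32388252 on the minus strand. Unlike Ltf it was abundant in both layers. Progenitors held 4070.0 and 4204 CPM under corn oil and 4668 and 6360.3 CPM under 4OHT. Basal cells held 1318 and 2310.5 CPM under corn oil and 965 and 1768 CPM under 4OHT. The hormone-sensing values, 333, 356, 317 and 336 CPM, were the lowest of the 3 classes in every library and lay close together. The order progenitor, basal, hormone-sensing held in each of the 4 libraries, with log2 fold changes of 1.93 for progenitors over basal cells (standard error 0.19, adjusted p = 4.9e-07) and -2.20 for hormone-sensing over basal cells (standard error 0.20, adjusted p = 1.3e-07).

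The next 4 genes belong to the family with WAP domains, small disulphide-rich modules that often inhibit serine proteases. Slpi (ENSMUSG00000017002; chr2:164354070-164389095, minus strand) encodes an inhibitor of neutrophil elastase, and it was the basal gene of the set. Basal cells held 8655 and 10781 CPM under corn oil and 11733 and 10098 CPM under 4OHT, which was 80.6% to 91.3% of the UMIs of all 10 genes in that class. Progenitors held 611, 797, 1006 and 548 CPM in the same order, a log2 fold change of -3.56 (standard error 0.25, edgeR adjusted p = 9.4e-09). Hormone-sensing cells held 1041 and 2886 CPM under corn oil and 1662 and 781 CPM under 4OHT. Their excess over progenitors, a log2 of 0.73 in size, passed (adjusted p = 0.018) but was not past the threshold without corn oil 2 (log2 fold change -0.32 for progenitors over hormone-sensing cells, adjusted p = 0.086).

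Wfdc18 and Wfdc17 lie side by side in the same direction on chromosome 11, with 2746 bases between them, at chr11:83709015-83711348 and chr11:83703991-83706268. Wfdc18 (ENSMUSG00000000983), also called Expi, an extracellular proteinase inhibitor, was a major progenitor transcript. It stood at 2053 and 5500.4 CPM under corn oil and at 2680.2 and 2806 CPM under 4OHT, with corn oil 2 highest. Basal cells held 32.7, 95.4, 42.3 and 79.4 CPM, which gave a log2 fold change of 5.94 (standard error 0.54, edgeR adjusted p = 1.5e-07). Its neighbour Wfdc17 (ENSMUSG00000069792), known for its expression in macrophages, gave 14.2, 174, 39.7 and 46.3 CPM in progenitors, again with corn oil 2 highest. Its log2 fold change over basal cells, which held 0.494 to 6.68 CPM, was 4.65 (standard error 0.72, edgeR adjusted p = 4.8e-05). A few cells carried most of these counts: 1 progenitor of corn oil 2 held 129 of its 347 Wfdc17 UMIs once each cell was thinned to 2000 UMIs. The 35 cells with leukocyte markers, found in corn oil 2 and 4OHT 1 only, held 14 and 1 UMIs of Wfdc17.

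Wfdc3 (ENSMUSG00000076434), a less studied member of the family, lies 342084 bases from Slpi on the same strand, at chr2:164731180-164745931. It read 76.4 and 68.2 CPM under corn oil and 45.6 and 67.2 CPM under 4OHT in progenitors. Basal cells held 1.98, 1.84, 3.20 and 4.10 CPM, from 12 to 27 UMIs per library. The log2 fold change of progenitors over basal cells was 4.81 (standard error 0.23, edgeR adjusted p = 1.1e-10). No Wfdc3 UMI was found in cells with endothelial, fibroblast or leukocyte markers.

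Another 2 genes serve the sensing of lipopolysaccharide. Lbp (ENSMUSG00000016024; chr2:158306493-158332852, plus strand) encodes the protein that carries lipopolysaccharide to CD14. Progenitors held 143 and 144 CPM under corn oil and 78.3 and 87.9 CPM under 4OHT, and basal cells held 24.1, 23.4, 19.2 and 17.8 CPM. The log2 fold change was 2.66 (standard error 0.19, edgeR adjusted p = 1.1e-08). Lbp was also high outside the epithelium: cells with endothelial markers held 169.5, 189 and 275 CPM in corn oil 2, 4OHT 1 and 4OHT 2, each above the progenitors of its library. The 7 such cells of corn oil 1 held no Lbp UMI, which allows up to 115 CPM by counting error alone.

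Cd14 (ENSMUSG00000051439; chr18:36725067-36726798, minus strand) encodes the co-receptor that passes lipopolysaccharide to TLR4. Progenitors held 488 and 584 CPM under corn oil and 803 and 244 CPM under 4OHT, so the 4OHT libraries lay on either side of the corn oil pair. Basal cells held 7.17, 14.5, 11.5 and 10.8 CPM, a log2 fold change of 5.73 (standard error 0.36, edgeR adjusted p = 2.1e-09). Of 16 other genes of lipopolysaccharide sensing that were tested, from a list of 20, 10 passed as higher and 1 as lower in progenitors. Their median log2 fold change was 0.79, and 26.8% and 29.6% of all genes passed as higher and lower. Tlr4, the receptor itself, had a log2 fold change of 3.31 from a mean of 4.54 ± 2.23 CPM in progenitors (SD, n = 4), and Irak3, an inhibitor of the pathway, one of 2.72. Myd88, the adaptor, was lower with a log2 fold change of -0.49 (edgeR, adjusted p = 0.034).

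Fcgbp (ENSMUSG00000047730; chr7:28071236-28120862, plus strand) encodes a mucus protein that binds the Fc part of IgG. Progenitors held 434 and 424 CPM under corn oil and 255 and 200.3 CPM under 4OHT, and basal cells held 8.40, 8.11, 4.88 and 3.95 CPM. Both classes were lower in the 4OHT libraries, and the ratio between the classes was nearly constant. The log2 fold change of progenitors over basal cells was 6.0 (standard error 0.25, edgeR adjusted p = 3.8e-11). Of 5 mucin-list genes tested, from a list of 10, 4 likewise passed as higher in progenitors (median 4.81), where 26.8% of all genes did so. Among them were Muc15 with a log2 fold change of 5.59 and the cell-surface mucin Muc1 with 5.48. Because 6.42% of the 50-base words in Fcgbp transcripts also occur in 9530053A07Rik and B230219D22Rik, its counts could have been affected. The words were taken over whole transcripts, not only the 3′ ends.

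Spp1 (ENSMUSG00000029304; chr5:104435118-104441050, plus strand) encodes osteopontin, a secreted phosphoprotein of milk and matrix that binds integrins and CD44. Progenitors held 4438 and 3171 CPM under corn oil and 1996 and 2966 CPM under 4OHT. Basal cells held 88.7, 126, 25.6 and 63.4 CPM, and hormone-sensing cells 659, 83.3, 78.8 and 73.9 CPM. In corn oil 1, 1 hormone-sensing cell held 107 of 278 Spp1 UMIs after thinning. The excess of hormone-sensing over basal cells rested on corn oil 1, since the log2 fold change of 1.11 (edgeR, adjusted p = 0.031) became 0.38 without that library (adjusted p = 0.34). It also missed the threshold without 4OHT 1 (1.02, adjusted p = 0.092), in DESeq2 (1.09, adjusted p = 0.094) and without cells with leukocyte marker UMIs (1.03, adjusted p = 0.069), whereas it was 1.90 without high doublet scores (adjusted p = 2.2e-04). Gm42793, a gene model on the same strand that the annotation marks as still to be checked, overlaps Spp1 and shares 11.6% of its 50-base words. Among the receptors for the secreted proteins, 3 of 11 tested passed as higher in progenitors and 6 as lower (median -0.67). Of all genes tested, 26.8% passed as higher and 29.6% as lower. Itgb6 had a log2 fold change of 3.55 and Cd44 one of 0.56, whereas Itga9, an osteopontin receptor subunit, was at -4.38 and Lrp1, which takes up lactotransferrin, at -4.28.

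Over basal cells, hormone-sensing cells were higher in Wfdc18 (log2 fold change 3.51), Ltf (2.76), Fcgbp (2.50) and Cd14 (2.26), all past the threshold in edgeR. Wfdc17 (1.39, adjusted p = 0.26) and Wfdc3 (0.76, adjusted p = 0.072) did not pass. Lbp was lower than in basal cells, with a log2 fold change of -1.24 (edgeR, adjusted p = 6.5e-04). The hormone-sensing levels of Ltf, Wfdc17, Wfdc18 and Cd14 were each higher in both libraries numbered 1 than in both numbered 2. In those libraries the hormone-sensing cells were also the deepest, with medians of 8054 and 5988.5 UMIs against 4747 and 5069. Wfdc18 was at 61.6% and 36.0% of the progenitor level in corn oil 1 and 4OHT 1, and at 4.14% and 13.0% in corn oil 2 and 4OHT 2. After thinning, 1 hormone-sensing cell held 184 of 609 Wfdc18 UMIs in corn oil 1 and 20 of 111 in corn oil 2. In 4OHT 1 and 4OHT 2 the largest counts were 210 of 626 and 115 of 388. For Ltf the largest were 38 of 182 in corn oil 1 and 4 of 20 in corn oil 2. They were 34 of 171 in 4OHT 1 and 31 of 91 in 4OHT 2. The hormone-sensing levels of Wfdc18 and Ltf thus rest in part on few cells. Without the cells of high doublet scores the log2 fold changes over basal cells were 3.73 for Wfdc18, 2.88 for Ltf, 2.69 for Fcgbp and 2.88 for Cd14. The part of depth in these values was not tested.

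Droplets also capture RNA free in the suspension, so shares of cells with a UMI were set beside those in cells with endothelial or fibroblast markers, all thinned to 2000 UMIs. Thinning left out 217 basal cells of the corn oil and 490 of the 4OHT libraries, 76 and 274 progenitors, 4 and 19 hormone-sensing cells, 25 and 91 endothelial-marker cells, and 19 and 14 fibroblast-marker cells. The marker cells are few: 6, 57, 31 and 64 endothelial-marker and 3, 67, 19 and 13 fibroblast-marker cells remained in corn oil 1, corn oil 2, 4OHT 1 and 4OHT 2. Median depth before it was 2827.5 to 5152.5 UMIs in basal cells, 3467 to 5280 in progenitors and 1853 to 3199 in endothelial-marker cells.

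Lcn2 was found in 88.6% ± 2.92 of progenitors (SD, n = 4 libraries), 66.3% ± 8.79 of basal cells and 22.2% ± 1.54 of hormone-sensing cells. Unthinned, the Lcn2 shares were 93.9%, 76.8% and 42.1%. The share was 36.5% ± 13.8 in endothelial-marker cells and 7.15% ± 9.86 in fibroblast-marker cells, so the hormone-sensing share lay between these marker groups and was not told apart from background. Slpi was found in 81.1% ± 4.13 of basal cells (90.7% unthinned). Its shares of 47.9% ± 9.01 in progenitors and 55.7% ± 11.7 in hormone-sensing cells lay beside 47.5% (35.1% to 61.3% by library) and 48.2% (29.9% to 66.7%) in the endothelial- and fibroblast-marker cells. By level the order differed: Slpi was at 307, 226, 505 and 221 CPM in endothelial-marker cells, below the progenitors and the hormone-sensing cells of each library. No order is therefore read from these Slpi shares.

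Progenitor shares stood clear of that background for most other genes. They were 51.5% for Wfdc18, 43.9% for Ltf, 36.7% for Spp1, 32.0% for Fcgbp and 27.3% for Cd14, where the highest library of endothelial-marker cells had 19.4%, 16.7%, 9.68%, 5.26% and 8.77%. That 16.7% for Ltf is 1 of 6 cells in corn oil 1, and the other 3 libraries had 3.13% to 6.45%. Wfdc3, at 9.04% of progenitors, and Wfdc17, at 1.96%, were rarer. Lbp was found in 14.6% ± 3.24 of progenitors and in 0% to 29.0% of the endothelial-marker cells of a library. The mean basal shares of Ltf (4.48%), Cd14 (1.43%), Fcgbp (1.02%), Wfdc18 (8.49%) and Spp1 (7.59%) fell within the range of the endothelial-marker libraries. So did the mean hormone-sensing shares of Wfdc18 (14.5%), Ltf (9.02%), Spp1 (8.24%), Cd14 (6.77%) and Fcgbp (3.99%), the genes that were higher there than in basal cells, so these shares do not set hormone-sensing cells apart from background. Without thinning, progenitor shares were 61.2% for Wfdc18, 53.2% for Ltf, 46.1% for Spp1 and 44.9% for Fcgbp. They were 37.1% for Cd14, 25.4% for Lbp, 16.6% for Wfdc3 and 2.73% for Wfdc17.

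**Figure D2:**
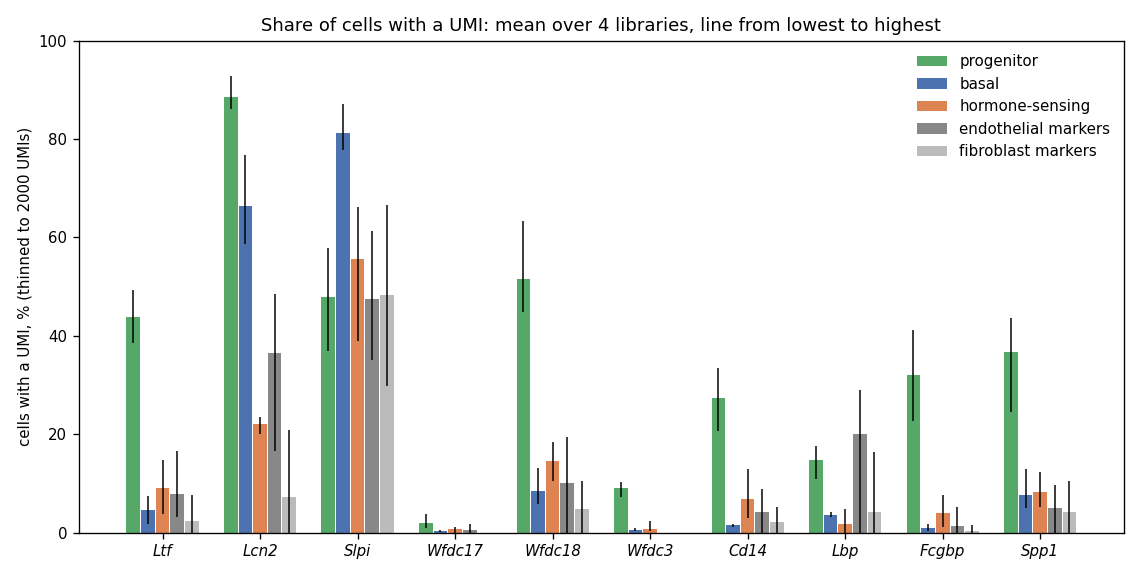
Percentage of cells with at least 1 UMI of each gene after thinning to 2000 UMIs, for 3 epithelial classes and 2 groups of marker cells. Bars start at 0 and give the mean over 4 libraries, and lines run from the lowest to the highest library; the progenitor bar for Lcn2 is at 88.6% and the basal bar for Slpi at 81.1%.

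The basal level of each gene, taken as a percentage of the progenitor level in the same library, separated the genes further. It lay between 0.90% and 1.67% for Ltf, 1.58% and 2.83% for Wfdc18, 1.43% and 4.42% for Cd14, and 1.28% and 3.97% for Spp1. For Fcgbp it was 1.93%, 1.91%, 1.92% and 1.97%, almost the same figure in every library. Csn3, a casein transcript of luminal progenitors, gave 1.39% to 3.30% by the same measure. Lbp, at 16.3% to 24.5%, and Lcn2, at 20.7% to 55%, stood above that range in every library. Wfdc3 was within it under corn oil and above it under 4OHT, at 7.02% and 6.09%, and Wfdc17 ran from 1.23% to 14.4% on few UMIs. Slpi went the other way, with basal levels 1166.8% to 1843.9% of the progenitor level.

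**Figure D3:**
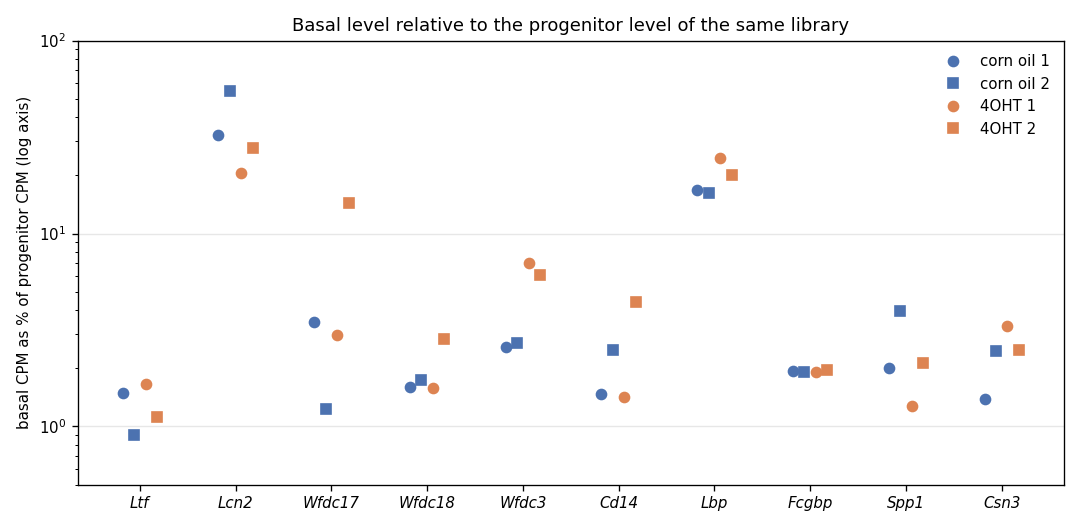
Basal CPM as a percentage of progenitor CPM of the same library on a log axis, with 1 point per library, for 9 genes and the casein Csn3; Slpi, at 1166.8% or more, is left out. Fcgbp points coincide, from 1.91% to 1.97%, and Lcn2 and Lbp lie above all points of Csn3.

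Among progenitors, the genes were spread unevenly. After thinning, the top 10% of progenitors held 34.3% to 43.8% of Lcn2 UMIs across the libraries. They held 57.6% to 68.8% of Ltf, 58.9% to 72.5% of Wfdc18, 67.3% to 82.2% of Cd14 and 74.3% to 93.0% of Spp1. In each library 1 progenitor or more reached at least 220 Spp1 UMIs of 2000. Basal cells were uneven for Slpi too, with 52.0% to 57.1% of its UMIs in the top 10% and up to 333 UMIs in 1 cell.

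Cells with 1 of these transcripts tended to have certain others. Over 1092 to 1614 thinned progenitors per library, Spearman's rho between Ltf and Wfdc18 ran from 0.35 to 0.46, between Lcn2 and Wfdc18 from 0.28 to 0.44, and between Ltf and Fcgbp from 0.31 to 0.38. A Wfdc18 UMI was found in 60.5% to 81.6% of progenitors with an Ltf UMI and in 29.6% to 50.5% of those without. Cd14 went with Lcn2 (0.26 to 0.41), with Wfdc18 (0.24 to 0.45) and with Spp1 (0.15 to 0.44). Ltf and Spp1 did not go together, at -0.12 to 0.08. Slpi stayed between -0.10 and 0.08 with every other gene. These are descriptions over cells that share a library, in sparse counts, and carry no test.

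**Figure D4:**
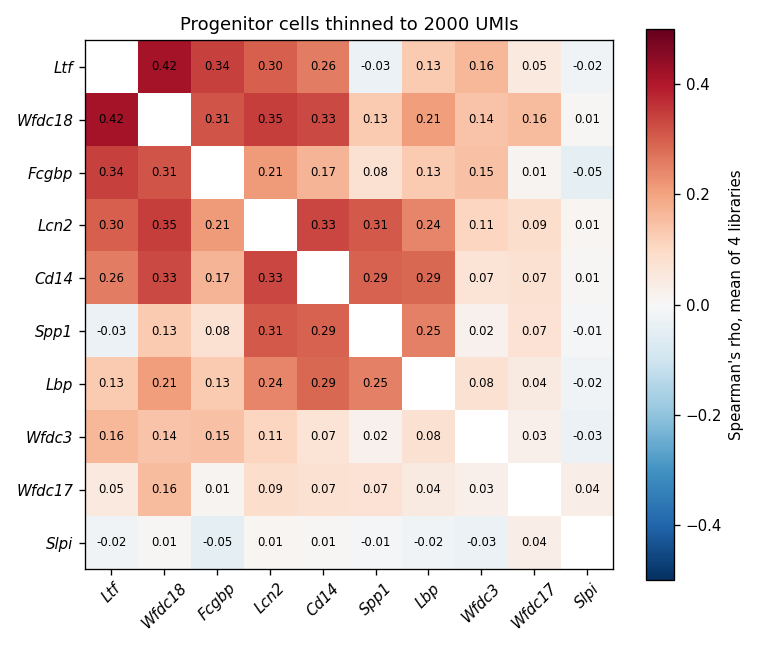
Spearman's rho between genes over progenitor cells thinned to 2000 UMIs, as the mean of 4 libraries. The largest value is that of Ltf with Wfdc18 (0.42), Ltf with Spp1 is at -0.03, and the Slpi row stays between -0.05 and 0.04.

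The class sums gave a second view of which genes vary alike. Over the 12 sums of 3 classes by 4 libraries, which share libraries and are led by the class differences, Pearson's r of log2(CPM + 1) was computed against 4123 genes averaging 20 CPM or more. Ltf was most like Bglap3 (0.97), Chmp4c and Cyb5a, and Lcn2 most like Dusp5, Frat2 and Acer3 (0.96 each). Slpi was most like Stx11 (0.97), Lamc1, a laminin chain of the basement membrane, and Slc39a6. Wfdc18 was most like Lrg1 (0.97), Ehf and 3110079O15Rik, and Cd14 most like Plb1, Muc15 and Sbsn (0.97 each). Wfdc3 and Spp1 had Cmas, an enzyme of sialic acid activation, and Trf, the gene of transferrin, in common among their 3 nearest genes, beside Trim46 for Wfdc3 and C530043A13Rik for Spp1. Fcgbp was closest to Chpt1 (0.99), Plb1 and 3110079O15Rik, Lbp to Tmem11 (0.96), Ppp2ca and Wnt5b, and Wfdc17 to Dmkn (0.93), Plb1 and Sbsn.

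Most genes of a wider defence list that had enough counts to be tested were also higher in progenitors. Of this list of 28 genes, 12 were tested. Besides defence genes it holds Btn1a1, Mfge8 and Xdh, genes of milk fat globules, and Mfge8 was also on the list of luminal progenitor markers. Among the 12 tested, 10 passed as higher and 2 as lower in progenitors than in basal cells (median log2 fold change 2.75). Of all genes tested, 26.8% passed as higher and 29.6% as lower. Btn1a1, a butyrophilin of milk fat globules, had a log2 fold change of 6.12, and Lrg1, an acute phase glycoprotein, one of 5.29. The lower genes were Defb1, a defensin, at -4.72, and Ptx3, a soluble pattern receptor, at -2.06 (edgeR, adjusted p = 9.1e-07 and 0.0016). Defb1 was thus on the basal side with Slpi, at 69.2 ± 35.3 CPM in basal cells and 2.0 ± 1.18 CPM in progenitors (SD, n = 4). Of the other WAP genes only Wfdc12 and Wfdc2 of 16 had enough counts to be tested, and both were higher, with log2 fold changes of 4.48 and 0.60. Wfdc2 was nonetheless highest in hormone-sensing cells, at 1416 ± 193 CPM against 102 ± 46.4 CPM in progenitors and 77.0 ± 21.5 CPM in basal cells (SD, n = 4).

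Among 23 regulators, 9 passed as higher and 6 as lower in progenitors than in basal cells (median 0.33). Of all genes tested, 26.8% passed as higher and 29.6% as lower. The largest positive differences were those of Elf5, which the class rule used, and Ehf, an epithelial ETS factor, at 6.02. Nfkbia, a target and inhibitor of NF-κB, was at 3414 ± 708 CPM in progenitors and 748 ± 265 CPM in basal cells (SD, n = 4; log2 fold change 2.53, edgeR adjusted p = 9.6e-07). Cebpb was slightly higher in progenitors (0.61, adjusted p = 0.0064). Socs3, a feedback inhibitor of STAT3, was lower at -3.13 and Tfap2c at -2.63.

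Letters of factor motifs were looked for in the 300-base promoter windows of RefSeq (GRCm38.p6; 250 bases before to 50 after a start), which cover 8 of the 10 genes with 9 windows. Both strands were searched. The C/EBP letters TTGCNNAA were in 1 window each of Lcn2, Slpi, Ltf and Spp1, and in 10.8% of all 32851 windows. The NF-κB letters, GGGA, any 4 bases and CC, were in Wfdc3 only, in 2 places, and in 20.7% of all windows. The AP-2 letters GCCNNNGGC (16.6% of all windows) and the STAT letters TTCNNNGAA (8.30%) were in none of the 9. The stretches of 30 bases with C/EBP letters are shown because they join genes of opposite class pattern. They are printed 5′ to 3′ in the direction of the gene, with the matching letters in capitals.
Lcn2: agcccttcctgTTGCTCAAccttgcacagt
Slpi: gaatttgtaTTGAGCAAtaggttagagttt
Ltf: aggcaggcctaTTGGGCAAtagggtggggc
Spp1: ctttttcttccTTGCAGAAagtactctcat

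The Lcn2 stretch, at chr2:32387937-32387966, lies within an exon of another Lcn2 transcript in GENCODE. The Slpi stretch is at chr2:164356728-164356757, in an intron of a longer Slpi transcript, and the Spp1 stretch, at chr5:104436025-104436054, is also intronic. Only the Ltf stretch, at chr9:111019206-111019235, lies upstream of its gene. The letters of Slpi, TTGAGCAA, are those of Lcn2, TTGCTCAA, read on the other strand, although Slpi was highest in basal cells and Lcn2 in progenitors. A match of letters is not evidence of binding.

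The comparison of 4OHT with corn oil asked whether the labelled treatment went with a change in these genes. None of the 10 passed an adjusted p of 0.05 in any class in edgeR's quasi-likelihood test, where all their adjusted p-values were 0.999 or 1.00. Over all genes, 0% of 10788 passed in basal cells and 0% of 10036 in progenitors. In hormone-sensing cells 0.0129% of 7744 passed, a single gene, Ctsr, named here after its values were seen. An unadjusted p under 0.05 was found for 2 of the 10 genes in basal cells, 2 of 10 in progenitors and 2 of 9 tested in hormone-sensing cells. Over all genes tested it was found for 465 of 10788, 168 of 10036 and 244 of 7744. DESeq2 called 38, 1 and 5 genes in these comparisons, none of them among the 10. With 1 library left out, the basal comparison of 4OHT with corn oil called 59, 29, 127 and 17 genes without corn oil 1, corn oil 2, 4OHT 1 and 4OHT 2.

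Fcgbp had the most regular pattern. Both 4OHT libraries were below both corn oil libraries in each class, with log2 fold changes of -0.86 ± 0.32 in basal cells, -0.83 ± 0.27 in progenitors and -1.47 ± 0.51 in hormone-sensing cells (± standard error). The unadjusted p-values were 0.034, 0.012 and 0.015 (edgeR), and the adjusted ones 0.999, 1.00 and 0.999. The 3 classes come from the same 4 libraries and are not separate evidence. The basal counts were 26 to 68 UMIs per library, and stayed at 1.91% to 1.97% of the progenitor level in both groups. In hormone-sensing cells, the Fcgbp log2 fold change ran from -2.40 to -0.77 with 1 library left out.

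Lbp was lower in both 4OHT libraries in progenitors, where the group means were 143 ± 1.01 CPM under corn oil and 83.1 ± 6.83 CPM under 4OHT (SD, n = 2 each). The log2 fold change was -0.69 ± 0.27 (edgeR, unadjusted p = 0.030, adjusted p = 1.00). The basal means were 23.7 ± 0.49 and 18.5 ± 1.02 CPM, with no overlap (log2 fold change -0.32 ± 0.25).

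Spp1 was lower in the 4OHT libraries of all 3 classes, without overlap between the groups. The progenitor means were 3804 ± 896 CPM and 2481 ± 686 CPM (SD, n = 2 each; log2 fold change -0.52 ± 0.33). Basal means were 107 ± 26.2 and 44.5 ± 26.8 CPM, which gave a log2 fold change of -1.19 ± 0.49 (edgeR, unadjusted p = 0.049, adjusted p = 0.999). In hormone-sensing cells the value of -2.23 ± 0.64 came from corn oil 1, which held 659 CPM where the other 3 libraries held 73.9 to 83.3 CPM. Without that library it was -0.25, and without corn oil 2 it was -3.02.

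The counts of genes whose groups did not overlap can be read against all genes. In basal cells 3 of the 10 genes were lower in both 4OHT libraries (Fcgbp, Lbp and Spp1) and 1 was higher (Wfdc3), where 17.6% and 13% of all genes did so. In progenitors 4 were lower (Fcgbp, Lbp, Spp1 and Wfdc3) and 1 higher (Lcn2), where 16.7% and 7.4% of all genes did so. In hormone-sensing cells 2 of 9 tested were lower (Fcgbp and Spp1) and none higher, where 13.7% and 15.8% of all genes did so. The counts rest on 10 genes, and the same genes recur in classes that share libraries, so nothing particular to the 10 genes is read from them.

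Summed markers of other cells also differed between libraries. The summed level of 5 fibroblast markers in progenitors was 3.78 and 11 CPM under corn oil and 51.6 and 13.4 CPM under 4OHT. In hormone-sensing cells it was 250.3 and 51.9 CPM under corn oil and 1277 and 226 CPM under 4OHT, and in basal cells 14.5, 67.8, 10.8 and 19.3 CPM. In progenitors of 4OHT 2 and in hormone-sensing cells of corn oil 1, Dcn was the only 1 of the 5 fibroblast markers with a UMI. The groups did not overlap in progenitors, did so in the other classes, and overlapped in every class for 5 endothelial markers. The 13.4 CPM of progenitors in 4OHT 2 was thus that of Dcn alone. What these marker values mean for Fcgbp, Lbp and Spp1 was not tested.

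Slpi and Lcn2, the most abundant of the set in basal cells, differed between the groups by less than the spread of the libraries. Slpi had basal means of 9718 ± 1503 and 10915 ± 1156 CPM (SD, n = 2 each; log2 fold change 0.20 ± 0.23). Lcn2 had basal means of 1814 ± 702 and 1367 ± 568 CPM (-0.35 ± 0.44). In progenitors Lcn2 was at 4137 ± 95.1 and 5514 ± 1197 CPM (0.52 ± 0.29), the 4OHT libraries both being higher. Ltf, Cd14 and Wfdc18 overlapped between groups in every class. In hormone-sensing cells without corn oil 1, the log2 fold change was 2.70 for Ltf and -1.37 for Slpi. In basal cells that of Wfdc17 was 2.51 without 4OHT 1 and -0.18 without 4OHT 2. After thinning, 1 basal cell of 4OHT 2 held 30 of the 34 Wfdc17 UMIs of that class and library.

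Whether the treatment difference itself differed between progenitors and basal cells was tested as an interaction. None of the 10 genes passed, where 0% of 11440 genes did and 424 fell under an unadjusted p of 0.05. Among the 10 genes 4 did so: Lcn2 (0.88 ± 0.29, progenitor minus basal log2 fold change), Wfdc17 (-2.29 ± 0.70), Wfdc3 (-1.25 ± 0.39) and Spp1 (0.81 ± 0.37), all with an adjusted p of 1.00 (edgeR). Without 4OHT 2 the Lcn2 value was 1.15. The Wfdc17 value drew on 4 to 44 basal UMIs per library, and after thinning 1 basal cell held 30 of the 34 UMIs of 4OHT 2. None of the further defence, sensing, mucin, receptor or regulator genes passed in a comparison of 4OHT with corn oil. Nfkbia, which was higher in both 4OHT libraries of basal cells, had a log2 fold change of 0.87 ± 0.31 (edgeR, unadjusted p = 0.028, adjusted p = 0.999). Cebpb was at 2255 CPM in the progenitors of corn oil 1 and at 488 to 755 CPM in the other 3 libraries.

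**Figure D5:**
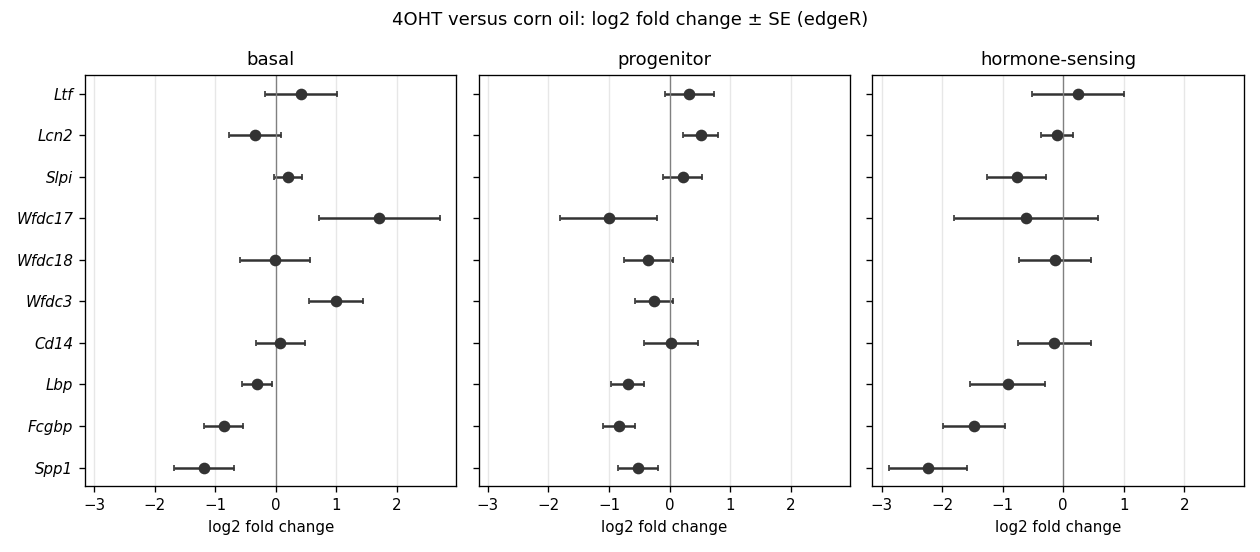
Log2 fold change of 4OHT over corn oil for the 10 genes in each class, from edgeR, with bars of 1 standard error; Wfdc3 was too rare to be tested in hormone-sensing cells. Fcgbp and Spp1 lie to the left of 0 in all 3 panels, and no point passed the adjusted threshold.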

How the data were processed

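The authors deposited unnormalised UMI counts for every gene in each cell barcode. Cell Ranger 3.0.1 and the mm10 reference (GRCm38.91) were used for mapping, per the labels' design text. Strand, intron and cell calling settings are not given in the sources used here. Counts of overlapping or near-identical genes could have been affected by that counting.

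Cells of at least 1000 UMIs were classed by raw UMIs of Krt5, Krt14, Krt17 and Acta2 against Krt8, Krt18 and Krt19 (a sum of at least 5 and over 3 times the other), and luminal cells by Ly6d, Fxyd2 and Gpx3 (at least 3, and above Csn3, Aldh1a3 and Elf5) as hormone-sensing or progenitor. Of the rest, with keratin sums under 5, those with 3 UMIs of an endothelial, fibroblast or leukocyte list served as background. Doublets stayed in; the cells with the highest Scrublet scores (scanpy 1.11.5; 0.8% per 1000 cells), whose automatic threshold marked under 0.5%, were left out as an alternative.

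Counts were summed per library and class and tested with edgeR 4.0.16 (R 4.3.3; TMM, filterByExpr, quasi-likelihood F-test, Benjamini-Hochberg, threshold 0.05). CPM is the count over the class total. With 2 mice per group, each library was 1 replicate. Simulated data had 200 genes changed 4-fold, all drawn from genes averaging over 10 CPM. Recovery of rarer genes, such as Wfdc17 in basal cells, was therefore not measured. The tests of treatment in basal, progenitor and hormone-sensing cells recovered 90.5%, 97.5% and 79.0%. The test of progenitors against basal cells recovered 100.0%, and that of the interaction 97.0%. False calls were 14, 23, 7, 26 and 16 in the same order. They were a larger share of the calls than the threshold sets in all but hormone-sensing cells. Alternatives were RLE factors, no filter, DESeq2 1.42.0, cell filters, a margin of 5, 2000 UMIs, the replicate block and each library left out. The genes, lists and tests were chosen with earlier results of these data known. Named genes are all 10, the 3 most alike of each, the 2 largest differences each way per list, and Tfap2c, Cebpb and Nfkbia. Csn3, S100a8, Dcn and Ctsr were added after their values were seen. Positions are from GENCODE M21, and promoters from RefSeq; proteins and the promoters of Cd14 and Lbp are not used here.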

Additional observations from a re-analysis of the deposited data

Results flagged for a closer look

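Cells outside the 3 tested classes held 3 signals in which both 4OHT libraries lay above both corn oil libraries, or above the limit that a count of 0 allows. These were not tested, and the groups of cells are small.

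Lbp in cells with endothelial markers was at 189 and 275 CPM in the 4OHT libraries and at 169.5 CPM in corn oil 2, while the 7 cells of corn oil 1 held none, which allows up to 115 CPM. Spp1 in the same cells was at 505 and 266 CPM in the 4OHT libraries, from 72 and 89 UMIs in 6 of 41 and 12 of 145 cells, so that few cells carried it. It was at 21.7 CPM in corn oil 2, from 5 UMIs in 5 of 81 cells, and at 0 in corn oil 1. Slpi in barcodes under 1000 UMIs was at 6157 and 5865 CPM in the 4OHT libraries and at 1378 and 1618 CPM in the corn oil libraries. These barcodes numbered 37 and 90 under corn oil and 139 and 125 under 4OHT.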

How the results depend on the processing

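The class comparisons kept their counts within 1.5 times under every alternative, and in progenitors against basal cells all 10 genes kept direction and call. The exceptions among the other class differences are, besides those given for Spp1 and Slpi, Wfdc17 in progenitors against hormone-sensing cells (DESeq2 adjusted p = 0.084). Wfdc17 and Wfdc3 passed between hormone-sensing and basal cells in some settings (no filter, or without 4OHT 1 or 4OHT 2). Of the values for the 10 genes under an alternative, 799 were unchanged. These are fold changes that kept direction and call, and some shares of cells that stayed within 1 SD. Another 45 shares moved by more than 1 SD without thinning or at 1000 UMIs. The sign turned in 49 fold changes, 14 of them with all libraries in. With all libraries in, 9 others passed only under the alternative and 3 no longer passed. Depth limits the low basal values, several of which rest on under 30 UMIs.

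Counts of genes called for 4OHT, by edgeR unless named, moved most. For basal cells, progenitors, hormone-sensing cells and the interaction they were 93, 40, 67 and 44 with no filter, and 38, 1, 5 and 1 with DESeq2. With the replicate block they were 167, 47 and 35, and 0 in hormone-sensing cells at the margin of 5. With 1 library left out they ranged from 17 to 127 in basal cells, 0 to 8 in progenitors, 3 to 48 in hormone-sensing cells and 0 to 25 for the interaction; a lone library was then assumed to vary like the rest. The cause was not tested. Same-numbered libraries deviated together (r = 0.59, 0.33 and 0.28 in the 3 classes), but with 2 pairs the numbers were not taken as a pairing. With the replicate block, Spp1 (-1.32, adjusted p = 0.013) passed in basal cells, and Spp1 (-1.67, 0.017) and Fcgbp (-1.50, 0.012) in hormone-sensing cells. With no filter, Spp1 (-2.21) and Fcgbp (-1.47) passed in hormone-sensing cells, and Lcn2, Wfdc17 and Spp1 in the interaction.

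No treatment difference that changed sign with all libraries in was past the threshold. In basal cells Wfdc18 was 0.080 with the replicate block, 0.061 without high doublet scores, 0.10 without leukocyte-marker UMIs and 0.057 at 2000 UMIs, and Cd14 was -0.0031 at 2000 UMIs. In progenitors Cd14 was -0.18 with the block and -0.020 without leukocyte-marker UMIs. In hormone-sensing cells Wfdc18 was 0.11 with the block, Lcn2 0.091 without leukocyte-marker UMIs and 0.068 at the margin of 5, and Cd14 0.053 at that margin. The Slpi interaction was 0.0049 with no filter, 0.042 without leukocyte-marker UMIs and 0.01 at 2000 UMIs.

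Leaving out 1 library turned the sign of further values. The ranges in basal cells were -0.20 to 1.66 for Ltf, -0.97 to 0.21 for Lcn2, -0.18 to 3.14 for Wfdc17, -0.67 to 1.05 for Wfdc18 and -0.39 to 0.76 for Cd14. In progenitors they were -0.19 to 1.17 for Ltf, -0.20 to 0.55 for Slpi, -1.87 to 1.66 for Wfdc17, -0.85 to 0.47 for Wfdc18, -0.64 to 0.050 for Wfdc3 and -0.98 to 0.62 for Cd14. In hormone-sensing cells they were -0.74 to 2.70 for Ltf, -0.24 to 0.064 for Lcn2, -1.37 to 0.31 for Slpi, -6.97 to 2.11 for Wfdc17, -0.95 to 1.41 for Wfdc18, -1.60 to 0.78 for Cd14 and -1.76 to 0.20 for Lbp. For the interaction they were -0.44 to 0.10 for Ltf, -0.39 to 0.36 for Slpi, -0.74 to 0.20 for Wfdc18, -1.16 to 0.56 for Cd14 and -0.043 to 0.14 for Fcgbp. Fcgbp and Spp1 stayed lower under 4OHT in all 3 classes with any library left out. Their groups did not overlap in any class, so this outcome was nearly fixed beforehand and adds no support.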
